A study of Mus musculus with 10 samples.

Results

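The corepressors that share a domain with Dach1 or are known to bind it were followed in the DRG, as 9 genes: the Ski/Sno family members *Ski*, *Skil*, *Skor1* and *Skor2*, the corepressor scaffolds *Ncor1* and *Sin3a*, the histone deacetylases *Hdac1* and *Hdac3*, and the Smad partner *Smad4*. They were chosen by name, as the rows whose Ensembl identifier maps to these symbols. This rule uses no measured value, but earlier results of these data were known when it was set. All 9 were among the 55414 genes listed in each library.

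Bulk RNA-sequencing counts were available for DRG of 5 control and 5 *WD1* cKO mouse embryos at E18.5. All embryos carry *Dach1* flox/flox alleles, in which exon 2 is floxed. By their titles, *WD1* cKO embryos also carry *Wnt1* Cre, and control embryos are taken here not to express the recombinase. *Wnt1* Cre acts in the neural crest, from which DRG neurons and glia derive, while blood and vessel cells do not derive from it. The floxed line was kept on a mixed C57Bl/6J and CD1 background. In the labels, the field for genotype names Cre for the samples titled control and not for those titled with *Wnt1* Cre, and the groups used here are those of the titles. The total count was 20465132 to 27528784 in control and 19757596 to 34796562 in *WD1* cKO libraries. Of all genes, 17490 had at least 10 counts in at least 5 libraries and were tested.

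The targeted gene followed the titles. *Dach1* stood at 35.0, 38.4, 41.6, 37.0 and 37.3 CPM (a library's counts for the gene, scaled to the same total in every library) in control replicates 1 to 5 and at 19.1, 20.7, 19.5, 20.2 and 20.4 CPM in *WD1* cKO replicates 1 to 5. The groups did not overlap, and edgeR's quasi-likelihood test gave a log2 fold change of -0.92 with a standard error (SE) of 0.050 and a Benjamini-Hochberg adjusted p of 5.48e-06. Summed levels of 8 neuron markers were 6537 to 6966 CPM in control and 6547 to 6823 CPM in *WD1* cKO libraries, and those of 6 glia markers 789 to 932 and 786 to 973 CPM, so both cell types of the labelled tissue were present in every library. In bulk RNA, fewer cells of a type and less RNA per cell cannot be told apart.

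Dach1 belongs to a family of nuclear corepressors built around a domain shared with Ski and SnoN, the protein that *Skil* encodes. These proteins bind DNA-bound partners such as Smad4 and bring NCoR and Sin3 scaffolds, which carry histone deacetylases, to target genes, where TGF-beta and BMP signals are held back. In the nervous system, Ski and SnoN act in progenitors, neurons and glia, and the Skor proteins are known from neurons of the spinal cord and cerebellum.

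The coding sequences of the family members were compared by the stretch at which each pair is most alike. The stretch of 90 bases at which *Ski* and *Skil* are most alike (coding bases 382 to 471 of *Ski* and 505 to 594 of *Skil*, transcripts of GENCODE M21 on GRCm38, 5′ to 3′) is shown because these 2 genes gave the family its name. Capitals mark the bases that differ between both genes.
Ski: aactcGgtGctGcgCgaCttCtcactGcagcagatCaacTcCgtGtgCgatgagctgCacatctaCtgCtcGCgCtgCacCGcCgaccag
Skil: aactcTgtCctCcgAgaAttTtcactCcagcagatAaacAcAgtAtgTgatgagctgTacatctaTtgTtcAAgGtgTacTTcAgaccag
The 2 stretches were the same at 68 of 90 bases, or 75.6%. The stretch that *Ski* shares best with *Skor1* is the next part of the *Ski* coding sequence (bases 469 to 558, against 400 to 489 of *Skor1*), with capitals again at the bases that differ.
Ski: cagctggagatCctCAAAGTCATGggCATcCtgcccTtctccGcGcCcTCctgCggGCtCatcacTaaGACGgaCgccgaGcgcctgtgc
Skor1: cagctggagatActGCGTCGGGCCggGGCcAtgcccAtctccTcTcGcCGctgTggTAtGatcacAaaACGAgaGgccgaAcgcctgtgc
Here 58 of 90 bases were the same, or 64.4%. Over the 6 pairs of the family, the best stretch of this length was most alike between *Skor1* and *Skor2*, at 80 of 90 bases (88.9%). It was least alike between *Skil* and *Skor2*, at 50 of 90 (55.6%), at bases 1841 to 1930 of *Skil* and not at 505 to 594. No unrelated genes were compared, so the likeness that a best stretch reaches without kinship is not known here. No window of 100 bases of *Ski*, *Skil*, *Skor1* or *Skor2* occurs in the annotated transcripts of another gene.

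No difference between the groups passed the test for any of the 9 genes. In edgeR's quasi-likelihood test, 8 of them passed the filter on low counts and 0 had an adjusted p-value under 0.05, against 0.0400% of all genes tested. Without adjustment 0 of the 8 had a p-value under 0.05 (background 4.50%), and by DESeq2's Wald test 0 had an adjusted p-value under 0.05. None passed the study's cut-off of p under 0.005 with a log2 fold change beyond 0.15 either way (background 0.383%), and in none were the libraries of the groups apart without overlap (background 1.06%). The log2 fold change was negative for 7 and positive for 1 of the 8 genes, with a median of -0.022, against 0.00022 over all genes tested. These signs were not all stable, as that of *Smad4* changed in 10 of 20 alternative fits and that of *Hdac3* in 5 of 20. The median absolute log2 fold change was 0.022, against 0.053 over all genes tested. For 6 of the 8 genes, the 95% interval of the change in *WD1* cKO lay within 15% either way.

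**Figure D1:**
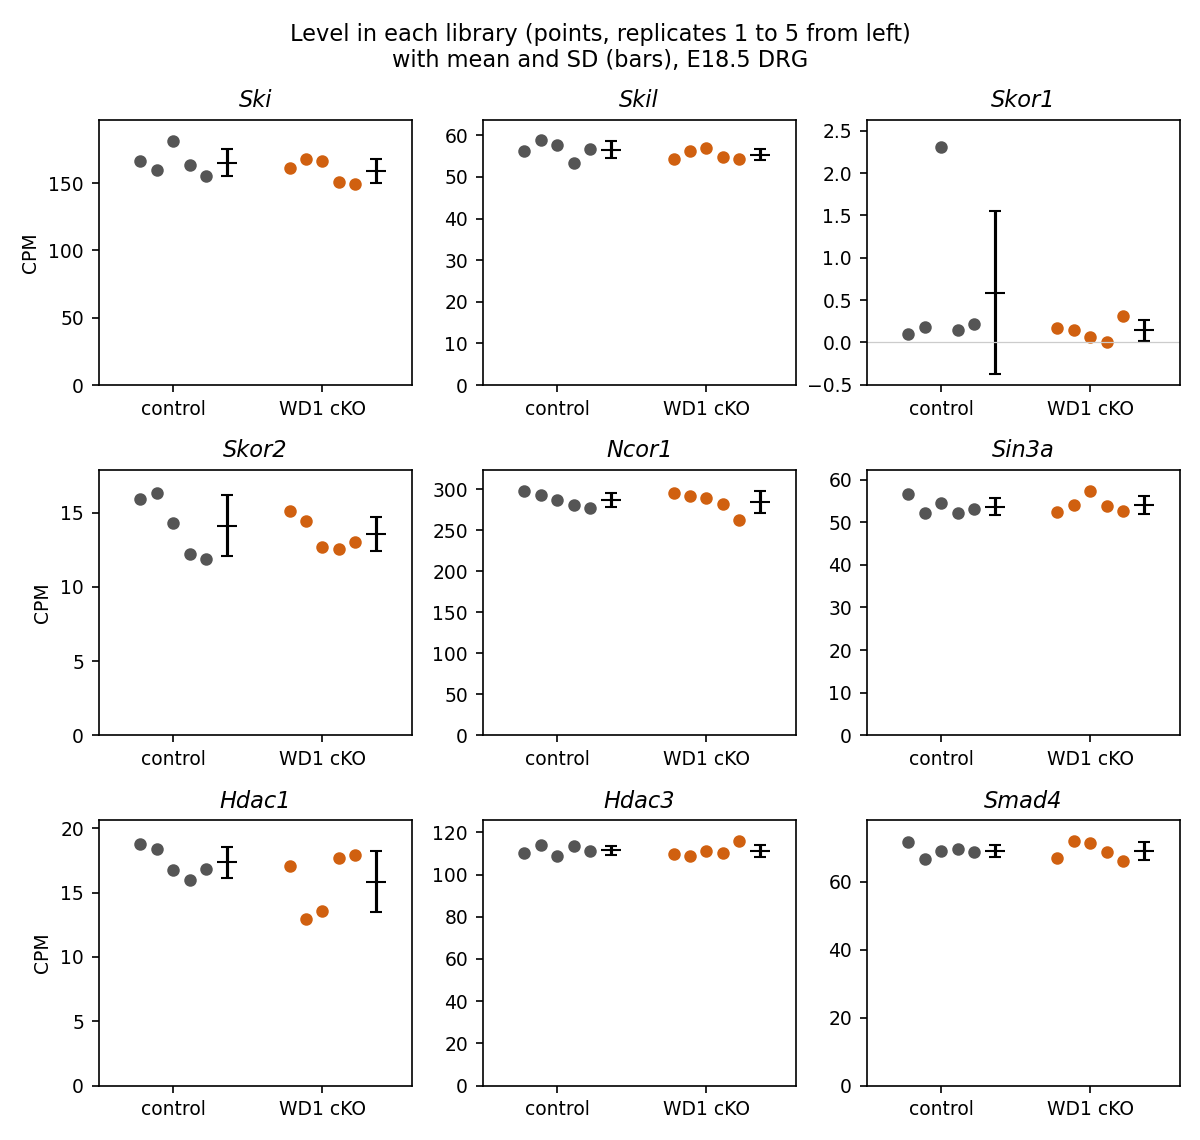
CPM (y axis, from 0 except for *Skor1*) of the 9 genes in the 5 control and 5 *WD1* cKO libraries, as points in replicate order, with the mean and SD beside them. The groups overlap for every gene, *Skor1* is high in control replicate 3 at 2.30 CPM, and *Hdac1* is lowest in *WD1* cKO replicates 2 and 3.

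*Ski*, the founding member of the family, was measured at 167, 160, 181, 164 and 155 CPM in control replicates 1 to 5 and at 161, 168, 167, 151 and 149 CPM in *WD1* cKO replicates 1 to 5. The highest library was a control and the 2 lowest were *WD1* cKO, but the ranges overlapped broadly. Its log2 fold change was -0.055 (SE 0.048, unadjusted p = 0.275, adjusted p = 1.00 in edgeR). The exact permutation test over the libraries, two-sided and on log2 CPM, gave p = 0.325, where the smallest p it can give with 5 against 5 is 0.00794. The 95% interval of the change ran from -10.5% to 3.52%.

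*Skil* encodes SnoN, which binds Smads like Ski does and is itself a target of TGF-beta signalling. It stood at 56.2, 58.8, 57.6, 53.2 and 56.8 CPM in control and at 54.4, 56.3, 57.1, 54.9 and 54.2 CPM in *WD1* cKO libraries. All *WD1* cKO values lay inside the range of the control libraries. *Skil* had a log2 fold change of -0.029 (SE 0.035, adjusted p = 1.00 in edgeR), with a 95% interval of the change from -7.07% to 3.33%. Per kilobase of exon, *Ski* exceeded *Skil* by 5.10 ± 0.339 times (SD, n = 5) in control and 5.00 ± 0.203 times (SD, n = 5) in *WD1* cKO libraries. The balance of both genes thus differed by less than the spread between libraries. The size of the ratio depends on the lengths used, here the union of annotated exons. With the transcript that has the longest coding sequence, *Ski* and *Skil* averaged 29.4 and 8.33 CPM per kilobase over all libraries.

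*Skor2*, known from Purkinje cells of the cerebellum, was measured at 15.9, 16.3, 14.3, 12.2 and 11.9 CPM in control and at 15.1, 14.4, 12.7, 12.6 and 13.0 CPM in *WD1* cKO libraries, or 248 to 452 counts per library. All *WD1* cKO values lay inside the control range. For *Skor2* the log2 fold change was -0.058 (SE 0.098, adjusted p = 1.00 in edgeR). The 95% interval of the change ran from -17.2% to 11.4%, wider than for *Ski* or *Skil*.

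*Skor1*, a partner of Lbx1 in dorsal interneurons of the spinal cord, was close to undetected. It had 85 counts in all libraries together, and 49 of these, or 57.6%, were in control replicate 3. That library stood at 2.30 CPM, while the other controls stood at 0.0974, 0.176, 0.147 and 0.220 CPM and the *WD1* cKO libraries at 0.168, 0.152, 0.0661, 0 and 0.317 CPM. *WD1* cKO replicate 4 had 0 counts, which allows up to 0.152 CPM, for counting error only. Control replicate 3 exceeded the highest other library by 7.26 times, and the other 9 libraries overlapped between the groups.

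Genes of the spinal cord moved with *Skor1* in that library. The summed level of 7 spinal cord markers was 17.2 CPM in control replicate 3 and at most 1.49 CPM elsewhere, and the level was highest there for 6 of the 7. *Slc6a5*, the glycine transporter of inhibitory neurons, had 99 of its 121 counts there, *Slc32a1*, the vesicular transporter of inhibitory amino acids, 70 of 86, and *Pax2* and *Lbx1*, transcription factors of dorsal horn interneurons, 81 of 97 and 41 of 52. *Olig1* had 57 of 97 counts and *Olig2* 17 of 35, while *Mnx1*, a motor neuron gene, had 0. The 3 genes whose log2 CPM was most like that of *Skor1* over the 10 libraries, *Fut9* (r = 0.93), *Gad1* (r = 0.91) and *Grm5* (r = 0.89), were each highest in control replicate 3 as well. *Gad1*, which makes GABA, stood at 7.71 CPM there and at 0.457 to 1.10 CPM elsewhere. Such values rest on 1 library, and the part of spinal cord RNA in the *Skor1* level was not tested.

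Without control replicate 3, *Skor1* averaged 0.160 ± 0.0513 CPM (SD, n = 4) in control and 0.141 ± 0.120 CPM (SD, n = 5) in *WD1* cKO libraries, and the exact permutation test, two-sided, gave p = 0.524. *Skor1* did not pass the filter on low counts. When it was tested without the filter, edgeR gave -1.88 on the log2 scale (SE 0.791), with an unadjusted p of 0.0283 and an adjusted p of 0.777 over 37123 genes, a value that rests on control replicate 3. *Skor2* did not share the pattern, since control replicate 3 held 8.89% of its counts and lay inside the range of the other libraries.

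**Figure D2:**
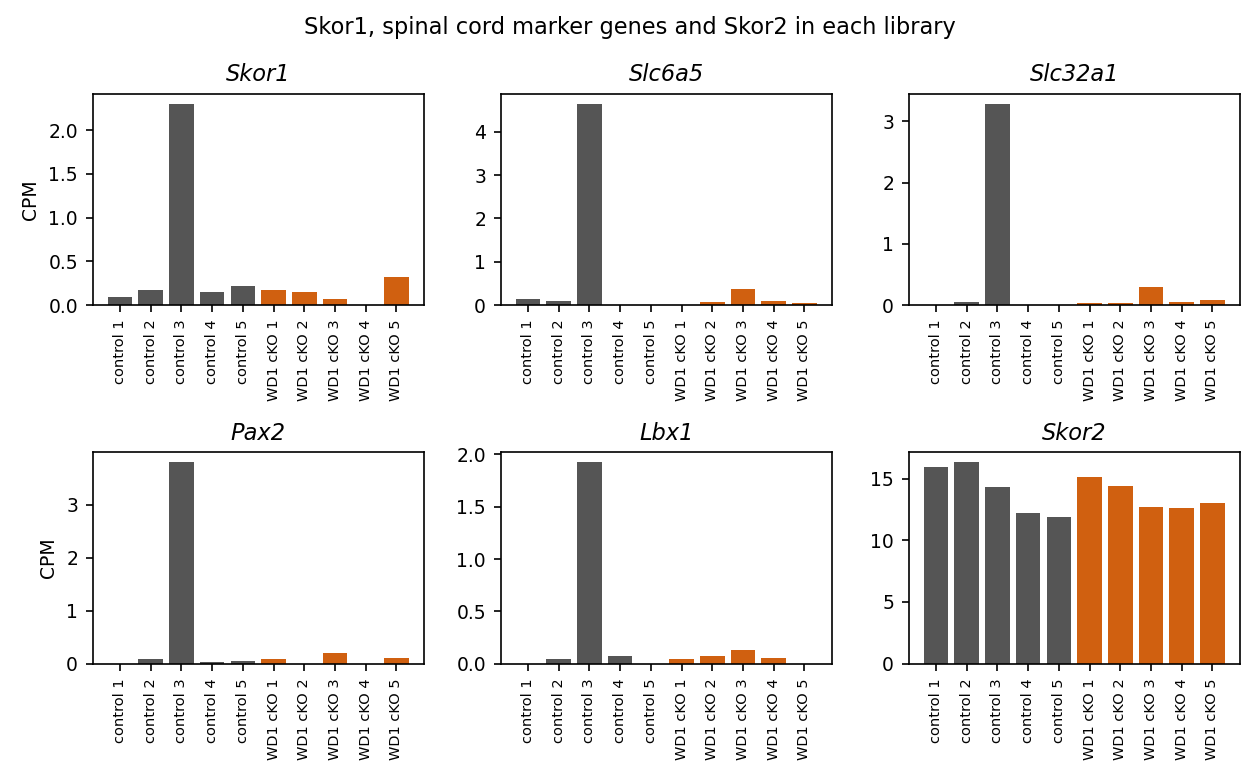
CPM (y axis, from 0, scaled per gene) of *Skor1*, 4 spinal cord marker genes and *Skor2* in each of the 10 libraries (bars, grey for control and orange for *WD1* cKO). *Skor1*, *Slc6a5*, *Slc32a1*, *Pax2* and *Lbx1* are each high in control replicate 3, and *Skor2* is not.

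*Ncor1* encodes the scaffold of the nuclear receptor corepressor complex, which binds and activates Hdac3. It was measured at 298, 293, 287, 281 and 277 CPM in control and at 296, 292, 289, 282 and 262 CPM in *WD1* cKO libraries. The lowest library was *WD1* cKO replicate 5, and the other values of both groups covered the same range. On the log2 scale *Ncor1* differed by -0.014 (SE 0.039, adjusted p = 1.00 in edgeR), with a 95% interval of the change from -6.65% to 5.01%.

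The *Ncor1* libraries overlapped between the groups but not between replicate numbers 1 to 3 and 4 and 5. Libraries of replicate numbers 1 to 3 stood at 286.8 to 297.9 CPM in both groups and those of numbers 4 and 5 at 262.2 to 282.2 CPM, without overlap. This was so for 1 of the 8 genes tested, close to the share of 11.2% of all genes tested, so it is not particular to *Ncor1*. *Skor2*, at 12.7 to 16.3 against 11.9 to 13.0 CPM, and *Ski*, at 159.9 to 180.9 against 148.9 to 163.6 CPM, leaned the same way, with overlap. *Hdac3* leaned the other way, at 108.9 to 114.1 against 110.0 to 116.0 CPM. For *Hdac1*, numbers 4 and 5, at 16.0 to 17.9 CPM, lay inside the range of 1 to 3, at 12.9 to 18.8 CPM. The ranges of *Skil*, *Sin3a* and *Smad4* overlapped as well. Blood markers moved with these numbers too, with summed levels of 509 to 2461 CPM for 1 to 3 and 155 to 242 CPM for 4 and 5, and the hemoglobin genes *Hba-a1* (r = 0.94) and *Hbb-bs* (r = 0.93) were among the 3 genes most like *Skor2* over the 10 libraries. No label calls these numbers a batch, and their part in the levels was not tested.

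*Sin3a* encodes the scaffold that carries Hdac1 and Hdac2. It stood at 56.7, 52.1, 54.4, 52.1 and 53.0 CPM in control and at 52.3, 54.0, 57.4, 53.8 and 52.8 CPM in *WD1* cKO libraries. The highest libraries were control replicate 1 and *WD1* cKO replicate 3, and the ranges of the groups overlapped almost entirely. For *Sin3a* the log2 fold change was 0.011 (SE 0.038, adjusted p = 1.00 in edgeR), with a 95% interval of the change from -4.91% to 6.73%. *Sin3b*, its paralog, had a log2 fold change of 0.0051, and the ratio of *Sin3a* to *Sin3b* per kilobase was 0.732 ± 0.0261 (SD, n = 5) in control and 0.734 ± 0.0165 (SD, n = 5) in *WD1* cKO libraries. *Ncor1* and *Sin3a* each overlap annotated genes on the opposite strand, *Ttc19* and *Pigl* among them for *Ncor1* and *Man2c1os* for *Sin3a*, and the strand setting of the counting is not given in the sources used here.

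**Figure D3:**
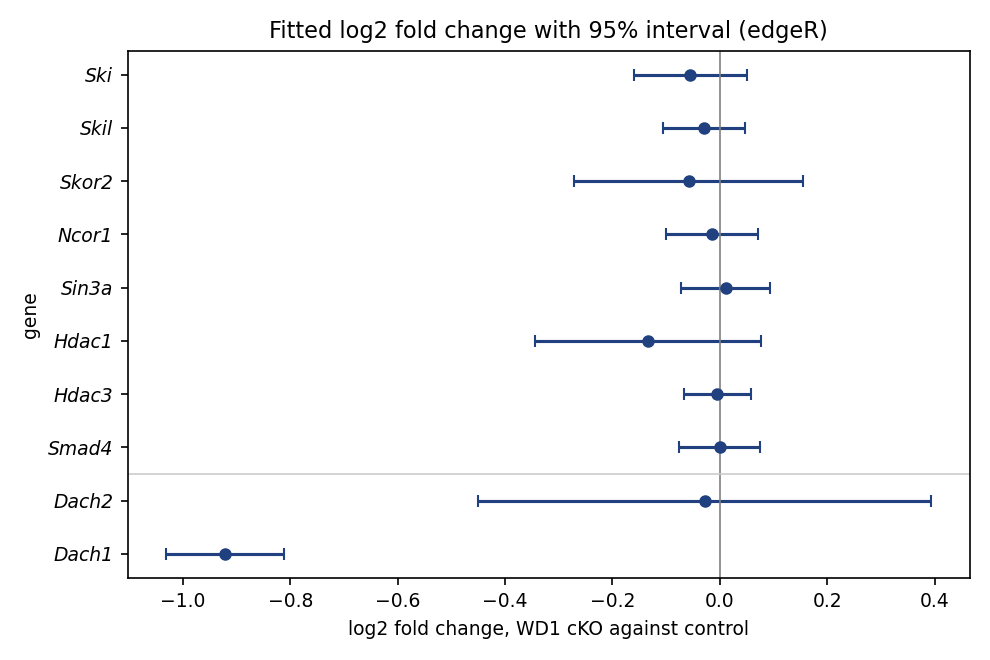
Log2 fold change of *WD1* cKO against control (x axis) with its 95% interval for the 8 genes tested, and below the line for *Dach2* and *Dach1*, from edgeR. All 8 intervals span 0 and the widest are those of *Hdac1* and *Skor2*, while that of *Dach1*, at -0.92, does not span 0.

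*Hdac3*, the deacetylase of the NCoR complex, was among the most even genes of the data. Its levels were 110, 114, 109, 113 and 111 CPM in control and 110, 109, 111, 110 and 116 CPM in *WD1* cKO libraries. The biological coefficient of variation, the spread between libraries beyond counting error, was 0.040, and 0.864% of all genes tested had a smaller value. On the log2 scale *Hdac3* differed by -0.0044 (SE 0.029, adjusted p = 1.00 in edgeR), with a 95% interval of the change from -4.53% to 4.11%.

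*Hdac1*, the deacetylase of the Sin3 and NuRD complexes, had the largest fold change and the second largest spread of the 8 genes. It stood at 18.8, 18.4, 16.7, 16.0 and 16.8 CPM in control and at 17.0, 12.9, 13.6, 17.7 and 17.9 CPM in *WD1* cKO libraries. *WD1* cKO replicates 2 and 3 were below every other library, and the other 3 lay inside the control range. *Hdac1* had a log2 fold change of -0.13 (SE 0.097, unadjusted p = 0.194, adjusted p = 1.00 in edgeR), with a 95% interval of the change from -21.2% to 5.51% and an exact permutation p of 0.278.

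The *Hdac1* count shares its sequence with processed pseudogenes, copies of the spliced transcript elsewhere in the genome. Of the 1939 windows of 100 bases in the *Hdac1* transcript, 907, or 46.8%, also occur in *Gm10093*, *Gm4864* or *AC125456.1*, of which 905 occur in *Gm10093*, 75 in *AC125456.1* and 2 in *Gm4864*. In an alignment with gaps, *Gm10093* equals the coding sequence at 1435 of 1444 aligned bases (99.4%), *AC125456.1* at 1393 of 1446 (96.3%) and *Gm4864* at 1381 of 1437 (96.1%). The following stretch of 90 bases (bases 108 to 197 of the *Hdac1* coding sequence and of the *Gm4864* transcript, GENCODE M21 on GRCm38, 5′ to 3′) shows the gene beside the copy that differs most, with capitals at the 2 bases that differ. It is the first stretch of this length with 2 differences, and other stretches differ at more bases.
Hdac1: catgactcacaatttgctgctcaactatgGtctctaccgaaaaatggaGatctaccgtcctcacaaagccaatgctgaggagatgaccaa
Gm4864: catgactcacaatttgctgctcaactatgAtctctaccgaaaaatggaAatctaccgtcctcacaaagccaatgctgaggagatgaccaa
No window of 100 bases of *Hdac3* or *Smad4* occurs in another gene's transcript, and 8 windows (0.160%) of *Sin3a* do, in *Man2c1os*.

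The libraries low in *Hdac1* were those high in the 2 copies that share few such windows with it, and not in the copy that shares most. *Gm4864* had 36 counts in *WD1* cKO replicate 2 and 29 in replicate 3, against 0 to 3 in each of the other 8 libraries. *AC125456.1* had 19 and 23 counts in the same libraries, against 0 to 5 elsewhere. *Gm10093* did not follow and had 7 and 14 counts against 6 to 13. Summed over *Hdac1* and the 3 copies, *WD1* cKO replicates 2 and 3 stood at 15.3 and 15.8 CPM, still the lowest libraries but nearer to the others, at 16.5 to 19.3 CPM. On these summed counts, a comparison added after the values were seen, the log2 fold change was -0.075 (SE 0.068, adjusted p = 1.00 in edgeR), and the 2 groups averaged 17.9 ± 1.18 CPM (SD, n = 5) in control and 17.0 ± 1.40 CPM (SD, n = 5) in *WD1* cKO libraries.

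**Figure D4:**
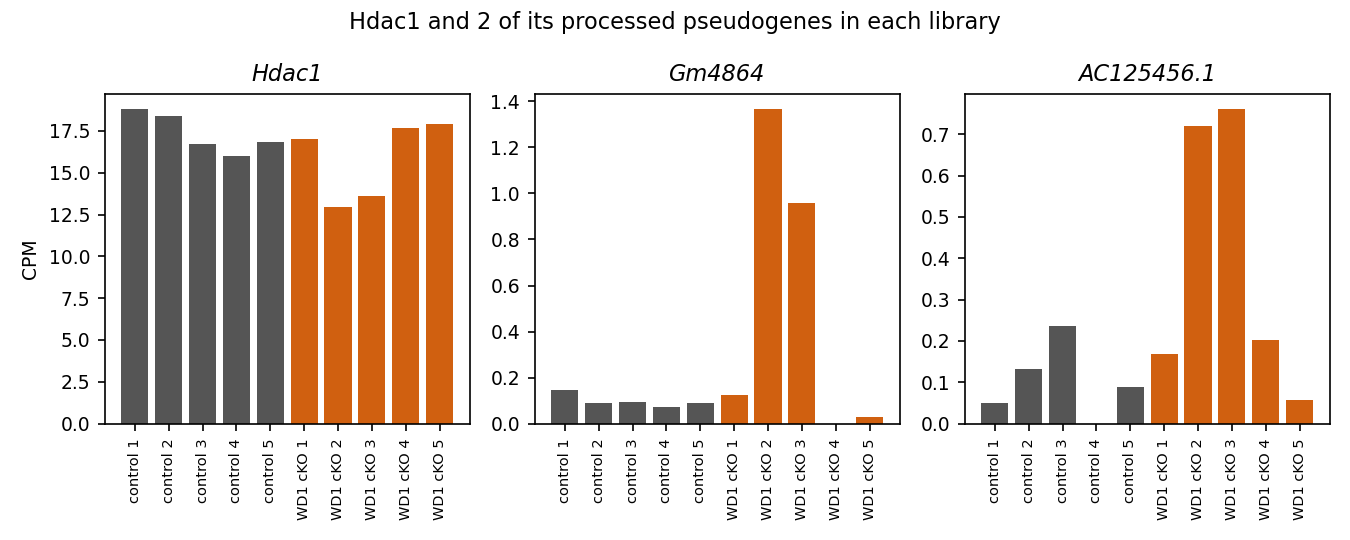
CPM (y axis, from 0, scaled per gene) of *Hdac1* and of its processed pseudogenes *Gm4864* and *AC125456.1* in each of the 10 libraries (bars, grey for control and orange for *WD1* cKO). *WD1* cKO replicates 2 and 3 are lowest for *Hdac1*, at 12.9 and 13.6 CPM, and highest for both pseudogenes.

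Some other genes of chromosome 4, on which *Hdac1* lies, also set these libraries apart. The gene most like *Hdac1* over the 10 libraries was *Hp1bp3* (r = 0.94), which encodes a heterochromatin binding protein and lies on the same chromosome. *Hp1bp3* stood at 174 to 178 CPM in *WD1* cKO replicates 2 and 3 and at 203 to 213 CPM in the other libraries. The next, *Gm1667* (r = 0.94), is on chromosome 4 as well, at 0.529 to 0.607 against 0.925 to 1.22 CPM. *Cstf2*, the third (r = 0.91), is on chromosome X. *Ski*, which also lies on chromosome 4, did not set these libraries apart, at 168 and 167 CPM in *WD1* cKO replicates 2 and 3. Of the 20 genes most like *Hdac1*, 7 were on chromosome 4, or 35.0%, where 5.92% of the genes tested lie. For the other 7 genes tested, 0 to 3 of the 20 most alike shared the chromosome. The count was chosen after the values were seen, correlations over 10 libraries share their depth and preparation, and the alleles that the embryos carry on this chromosome were not examined.

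*Hdac2*, the close paralog of *Hdac1*, had a log2 fold change of -0.032 (adjusted p = 1.00 in edgeR). Its counts per kilobase exceeded those of *Hdac1* by 8.71 ± 0.183 times (SD, n = 5) in control and 9.54 ± 1.71 times (SD, n = 5) in *WD1* cKO libraries. The size of this ratio depends on how reads that *Hdac1* shares with its pseudogenes were counted, which is not given. It also depends on the lengths used, 4474 and 3445 bases of annotated exons for *Hdac2* and *Hdac1*. Their transcripts with the longest coding sequence have 2005 and 2038 bases. The wider spread in *WD1* cKO follows replicates 2 and 3. *Hdac8*, the remaining class I deacetylase, had a log2 fold change of 0.13 (adjusted p = 1.00 in edgeR).

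*Smad4*, the common partner of the receptor-activated Smads, stood at 71.6, 66.6, 69.2, 69.7 and 68.7 CPM in control and at 67.1, 72.1, 71.5, 68.9 and 66.2 CPM in *WD1* cKO libraries. The means, 69.1 ± 1.81 and 69.1 ± 2.62 CPM (SD, n = 5 each), could not be told apart, and the log2 fold change was -0.0002 (SE 0.035, adjusted p = 1.00 in edgeR). The 95% interval of the change ran from -5.10% to 5.35%. Of the other 7 Smads, 0 had an unadjusted p-value under 0.05 in edgeR. The receptor-activated Smads had log2 fold changes of 0.0096 (*Smad1*), -0.10 (*Smad2*), 0.054 (*Smad3*), 0.023 (*Smad5*) and 0.11 (*Smad9*), and the inhibitory ones of 0.27 (*Smad6*, unadjusted p = 0.0693 in edgeR) and 0.15 (*Smad7*).

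For no gene of the complexes and signals around the 9 did a difference pass the test. These genes formed lists for the NCoR, Sin3, NuRD and CoREST complexes, the other class I deacetylases, the Smads, TGF-beta ligands and receptors, response genes of TGF-beta and BMP, and the ubiquitin ligases that act on Ski and SnoN. Besides the 9 genes these lists held 61 genes, 60 of them tested, and in edgeR 0 passed an adjusted p of 0.05. Without adjustment 0 were lower in *WD1* cKO with a p-value under 0.05 (background 2.38%) and 2 were higher (background 2.12%). The count of 2 was not stable, and the count over all genes tested, 787 in this fit, moved as well. With the replicate number as a block 5 pathway genes and 1241 of all genes passed. With a term for numbers 1 to 3 against 4 and 5 these counts were 7 and 1282. Without *WD1* cKO replicate 1 they were 6 and 917, and without control replicate 4 they were 4 and 806. Without *WD1* cKO replicate 2, 3 or 5, 1 pathway gene passed, beside 731, 639 and 652 of all genes. The median log2 fold change of the 60 was -0.0037. Among the 6 genes of the NCoR complex, 5 had a negative and 1 a positive log2 fold change, and among the 16 tested genes of the Sin3 complex 10 were negative and 6 positive.

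Both genes past the unadjusted threshold came from the list of 12 TGF-beta and BMP response genes. With 4.50% of all genes tested past it in either direction, 2 of 60 was not more than the background. *Id2*, an inhibitor of bHLH transcription factors, was measured at 43.6, 42.5, 38.8, 41.3 and 44.4 CPM in control and at 40.3, 47.8, 52.2, 47.8 and 51.1 CPM in *WD1* cKO libraries, so 4 *WD1* cKO libraries stood above every control and 1 did not. Its log2 fold change was 0.19 (SE 0.066, unadjusted p = 0.0160, adjusted p = 1.00 in edgeR, exact permutation p = 0.0556). *Bambi*, a decoy receptor that dampens TGF-beta and BMP signals, averaged 15.1 ± 1.31 CPM (SD, n = 5) in control and 16.8 ± 1.16 CPM (SD, n = 5) in *WD1* cKO libraries, with a log2 fold change of 0.16 (SE 0.071, unadjusted p = 0.0481, adjusted p = 1.00 in edgeR, exact permutation p = 0.0714). Neither difference passed the adjustment over all genes tested. In *Id2* as in *Bambi*, *WD1* cKO libraries reached into the control range. Of the 12 response genes, 8 had a positive and 4 a negative log2 fold change, from -0.18 to 0.27. The list was not tested as a set.

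Compared per kilobase of exon, the level of a gene relative to the others spanned a wide range. *Ski* and *Hdac3* were highest, at 29.1 ± 1.69 and 27.5 ± 0.593 CPM per kilobase (mean and SD over the 10 libraries), and their ranges overlapped. *Ncor1* followed at 22.3 ± 0.836, *Smad4* at 18.6 ± 0.571, *Sin3a* at 9.67 to 10.7 (its range) and *Skil* at 5.77 ± 0.178 CPM per kilobase, each without overlap with its neighbours in the order. *Hdac1* at 4.82 ± 0.564 and *Skor2* at 4.41 ± 0.507 CPM per kilobase overlapped, and *Skor1* was last, at 0.0961 ± 0.181. The place of *Hdac1* also depends on how reads shared with its pseudogenes were counted, which is not given. The lengths came from the union of annotated exons. With the length of the transcript that has the longest coding sequence instead, *Hdac3* was first at 54.8 CPM per kilobase. *Ncor1* was the next at 31.6 and *Ski* the third at 29.4, and the order from *Smad4* down was kept. *Skil* and *Hdac1* then stood at 8.33 and 8.14 CPM per kilobase, so their separation depends on the length used.

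**Figure D5:**
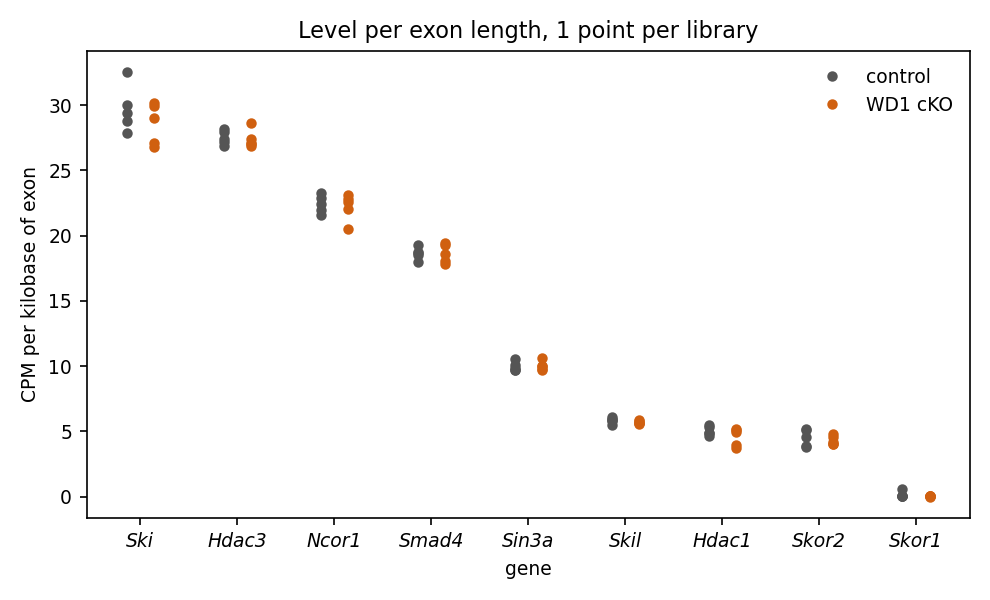
CPM per kilobase of exon (y axis) of the 9 genes (x axis, ordered by their mean), 1 point per library, grey for control and orange for *WD1* cKO. *Ski* and *Hdac3* overlap at the top, *Hdac1* and *Skor2* overlap near the bottom, and *Skor1* is close to 0.

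With *Dach1* lower in *WD1* cKO embryos and *Ski* (-0.055) and *Ncor1* (-0.014) little changed, the ratio of their transcripts to its own had to be higher there. The ratios therefore restate the fall of *Dach1* and are no separate result. Per kilobase, *Ski* exceeded *Dach1* by 5.75 ± 0.325 times (SD, n = 5) in control and 10.5 ± 0.753 times (SD, n = 5) in *WD1* cKO libraries, and *Ncor1* exceeded it by 4.35 ± 0.331 and 8.14 ± 0.571 times (SD, n = 5 each). These ratios include reads on every exon of *Dach1*. *Dach2*, the other Dach gene, ranged from 1.10 to 2.02 CPM in control and from 1.07 to 1.92 CPM in *WD1* cKO libraries, with a log2 fold change of -0.028 (SE 0.19, adjusted p = 1.00 in edgeR).

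No pair of the 8 genes passed a test for moving together from library to library. Of 28 pairs, 16 had a positive Pearson correlation of log2 CPM over the 10 libraries, and 0 had an adjusted p-value under 0.05 in a permutation test, with or without the group means removed. The pairs with the lowest p-values were *Sin3a* with *Smad4* (r = 0.74, permutation p = 0.0160; rho = 0.61, permutation p = 0.0663) and *Skor2* with *Ncor1* (r = 0.68, permutation p = 0.0235; rho = 0.82, permutation p = 0.00601), each with an adjusted p of r of 0.329 over the 28 pairs. Without the 2 libraries farthest from the median of the former gene, r was 0.57 for both pairs. Both *Skor2* and *Ncor1* are among the genes whose levels leaned with the replicate numbers, and within numbers 4 and 5 there were 4 libraries, too few for a correlation.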

How the data were processed

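Stranded mRNA libraries of DRG were aligned by the authors with STAR 2.7.8a to GRCm39 and counted per gene with featureCounts 2.0.1. The deposited values are raw counts, without normalization. The handling of reads that match several places is not given in the sources used here. Symbols, chromosomes, exon lengths and transcript sequences came from GENCODE M21 (GRCm38), which matched 52081 of 55414 identifiers. Its coordinates were not used.

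The filter asked for 10 counts in 5 or more libraries. Counts were scaled by TMM, groups were compared by quasi-likelihood in edgeR 4.0.16 (R 4.3.3) with no further term, and p-values were adjusted by Benjamini and Hochberg's method over 17490 genes. DESeq2 1.42.0 was an alternative. Exact permutation tests were two-sided and used log2 CPM (prior count 1). Correlation tests used 100000 resamples. Alternatives also changed the size factors, filter, dispersion, block, covariates and gene length, or left out each library. The fits were tested on simulated data.

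Within groups, the chi-square per degree of freedom between libraries was 4.39 to 15.4, above sampling noise, so each was counted as 1 replicate. This value does not show that the libraries are independent of one another. The study describes the controls as littermates, but the labels do not name litters, so p-values measure the spread between these samples. At the depths given, counting intervals cover counting error only. Same-numbered libraries correlated over 0.1 in 4 of 5 pairs. The numbers were not taken as pairs, because this was asked of every pair and no label ties a number to a litter or batch, and the fit with the number as a block was an alternative.

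The named genes were the 9 members, *Dach1*, *Dach2*, paralogs, pathway genes with an unadjusted p under 0.05, markers where 1 library holds most of a list, and for *Skor1* the 3 genes most alike. A gene under this rule is not reported here. The genes most like *Skor2* and *Hdac1*, and the pseudogenes, were named after their values were seen. The members and lists were chosen with earlier results of these data known.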

Additional observations from a re-analysis of the deposited data

Results flagged for a closer look

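*Skor1* in control replicate 3 stood at 2.30 CPM, far from the other 4 control libraries, which ranged from 0.0974 to 0.220 CPM. Its gap to the nearest of them was 0.945 of the range of the group, above Dixon's critical value for 5 libraries. Spinal cord markers were high in the same library. Of 22 groups of 5 libraries compared in this way, over the 9 genes, *Dach1* and *Dach2*, this was the 1 singled out, and chance alone gives about 1 in 20, or 1.1 of 22.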

How the results depend on the processing

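Over 10 alternative settings, 10 fits that each left out 1 library and the comparison of *Hdac1* summed with its pseudogenes, the 8 tested genes gave 161 values. Of these, 141 kept the sign and 20 had the other, at most 0.024 in size, and 0 had an adjusted p under 0.05 (lowest 0.753). Other signs were seen without the filter for *Hdac3* (0.0057) and *Smad4* (0.0099), with a mean count of at least 100 for *Smad4* (0.0012), with *Xist* as covariate for *Smad4* (0.024) and *Dach2* (0.061), with spinal cord markers as covariate for *Smad4* (8.7e-05) and *Dach2* (0.020), and with the ratio of glia to neuron markers for *Skor2* (0.023) and *Ncor1* (0.0072). Leaving out 1 library gave *Smad4* -0.016 to 0.013, *Hdac3* -0.023 to 0.0042, *Sin3a* -0.013 to 0.031, *Ncor1* -0.030 to 0.011 and *Dach2* -0.14 to 0.091, while *Ski* (-0.077 to -0.021), *Skil* (-0.051 to -0.015), *Skor2* (-0.11 to -0.00015) and *Hdac1* (-0.19 to -0.069) kept their sign.

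Genes past an adjusted p of 0.05 numbered 7 in the fit reported, 4 with *Xist* or with a minimum mean count of 100, 11 with a term for replicate numbers 1 to 3 against 4 and 5, 12 with the glia ratio and 19 with DESeq2, and 3 to 6 without 1 library, with 3 or 4 for each but control replicate 3 and *WD1* cKO replicate 1. Genes with an unadjusted p under 0.05 were 1496 without the filter, 1282 with the number term and 1043 with the glia ratio. Without 1 library they were 639 to 965. Genes past the study's cut-off were 128 without the filter, 117 with the number term, 113 with the glia ratio and 52 to 96 without 1 library. With the replicate number as a block, 1241 genes had an unadjusted p under 0.05 and 133 passed the cut-off, and 5 of the pathway genes had such a p. The numbers were not taken as pairs: same-numbered libraries correlated at 0.042 for number 2 and up to 0.39 for the others, and 3 of 5 control libraries were most like the *WD1* cKO library of their own number. Pathway genes with an unadjusted p under 0.05 were 7 with the number term, 4 with the glia ratio, and between 1 (without *WD1* cKO replicate 2, 3 or 5) and 6 (without *WD1* cKO replicate 1), with 4 without control replicate 4, the cause of which was not tested. Without the filter, 1 of the 9 genes had an unadjusted p under 0.05, *Skor1*, because it was tested only there. At 248 to 621 counts per library, *Skor2* and *Hdac1* had 95% intervals that reach to -17.2% and -21.2%.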
